A study of Saccharomyces cerevisiae with 12 samples.

Results

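The effect of low temperature on transcript levels was compared between nitrogen-limited and carbon-limited cultures of the yeast Saccharomyces cerevisiae. All 12 of the 12 arrays of the series enter the comparison, grouped by the limitation and temperature in their titles. The groups, with 3 arrays each, were nitrogen-limited (N-lim) cultures at 12 °C, N-lim cultures at 30 °C, carbon-limited (C-lim) cultures at 12 °C and C-lim cultures at 30 °C. All groups share the strain CEN.PK113-7D, a haploid of mating type MATa that needs no added nutrients such as amino acids, and were grown without oxygen in chemostats at a dilution rate of 0.03 per hour and pH 5.0. Per the labels each array of a condition came from its own culture, and errors given here therefore cover variation among cultures. For each gene the temperature effect is the mean log2 signal at 12 °C minus that at 30 °C. The quantity reported here, the difference, is the temperature effect under nitrogen limitation minus that under carbon limitation. A positive difference means that the gene rose more, or fell less, at 12 °C under nitrogen limitation. The same number is also the gap between N-lim and C-lim cultures at 12 °C minus that gap at 30 °C.

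A chemostat feeds fresh medium and removes culture at the same rate, so the dilution rate sets the growth rate and temperature can be varied without changing it. The nutrient in short supply is kept at a low residual level by the cells, while the others are in excess. Yeast short of nitrogen relieves nitrogen catabolite repression: the GATA factors Gln3 and Gat1 then switch on transporters and enzymes for poor nitrogen sources, and the repressor Dal80 acts at many of the same promoters. Yeast short of glucose relieves glucose repression and makes high-affinity hexose carriers, gluconeogenic enzymes and respiratory proteins, while amino acids outside the cell are sensed by the Ssy1-Ptr3-Ssy5 complex, which switches on broad amino acid permeases.

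The signals are Affymetrix probe set intensities scaled by the submitters to a common level, so RNA per cell cannot be compared, and in these bulk cultures fewer cells with a transcript and less of it per cell cannot be told apart. Correlations of log2 signals were 0.952 to 0.986 within groups and 0.864 to 0.972 between groups. The N-lim and C-lim arrays correlated at 0.93 to 0.972 at 12 °C and at 0.909 to 0.92 at 30 °C. C-lim replicate 1 at 12 °C correlated as highly with N-lim replicate 3 at 12 °C (0.9722) as with the other arrays of its own group (0.9698 and 0.9692), and N-lim replicate 1 at 12 °C stood apart from all other arrays on the third principal component, which held 8.8% of the variance. The median spread of a gene between arrays was 0.28 (SD, log2) in N-lim cultures at 12 °C and 0.18 at 30 °C, against 0.26 in C-lim cultures at 12 °C and 0.18 at 30 °C. The mean signal of the spiked control probe sets was 531 ± 205 in N-lim cultures at 12 °C and 521 ± 46.4 at 30 °C, and 519 ± 68.8 in C-lim cultures at 12 °C and 317 ± 33.4 at 30 °C (SD, n = 3 each). The signal ratio of the 3' control probe set of TBP to that at the other transcript end was 2.53 ± 0.541 in N-lim cultures at 12 °C and 3.13 ± 0.109 at 30 °C. In C-lim cultures it was 3.55 ± 0.541 at 12 °C and 2.94 ± 0.38 at 30 °C (SD, n = 3 each). For ACT1 the ratio was 1.55 and 1.82 in N-lim and 1.53 and 1.82 in C-lim cultures at 12 °C and 30 °C. The part of these properties in the results was not tested. Of the markers of nitrogen limitation GAP1, DAL5, MEP2 and DUR3, all 4 were higher in N-lim than in C-lim cultures at 30 °C, and GAP1 and MEP2 were at 12 °C, where DAL5 and DUR3 did not pass. Of the markers of carbon limitation RGI2, HXT5, PCK1 and SIP18, the last 3 were lower in N-lim cultures at 30 °C and did not pass at 12 °C. HXT5, PCK1 and SIP18 thus bear on the labelled limitation mainly at 30 °C. Other genes of sugar uptake and the glyoxylate cycle went the other way there. HXT2, HXT4 and MLS1 had higher signals in N-lim than in C-lim cultures at 30 °C. The carbon markers are therefore a selection, and the check by them is limited. RGI2 had signals of 3.8, 6.3 and 8.9 in N-lim and 31.2, 33.7 and 23 in C-lim cultures at 12 °C. Its N-lim arrays were thus below its C-lim arrays there too, and under the floor of 12. The anaerobic gene ANB1 had signals of 1580.3 to 2917 on all arrays.

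The temperature effect differed between the limitations for 402 of 5400 genes tested (7.44%; limma, adjusted p under 0.05). It was higher under nitrogen limitation for 157 genes (2.91%) and lower for 245 (4.54%), and 348 of the 402 differed by at least 2-fold (6.44% of all genes) and 48 by at least 4-fold (0.889%). The count fell to 252 without replicate 1 and 241 without replicate 2 of N-lim cultures at 30 °C, and to 236 without replicate 1 and 243 without replicate 2 of C-lim cultures at 30 °C. The split between directions depends on the scaling: there were 226 higher and 221 lower genes after quantile normalization, and 270 higher and 168 lower after setting the array medians equal. These scalings moved the median difference of all genes to -0.01 and 0.07, against -0.10 as deposited. Temperature alone changed 2063 genes under nitrogen limitation (38.2%; 857 rose and 1206 fell) and 1386 under carbon limitation (25.7%; 707 rose and 679 fell), the last count falling to 918 without replicate 1 of C-lim cultures at 30 °C. Of all genes, 15.9% rose and 22.3% fell under nitrogen limitation, and 13.1% rose and 12.6% fell under carbon limitation. The counts per gene list below are to be read beside these shares and the 2.91% higher and 4.54% lower differences. Across genes, which are not independent replicates, the temperature effects under the limitations correlated with r = 0.626 (Pearson) and rho = 0.605 (Spearman).

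**Figure D1:**
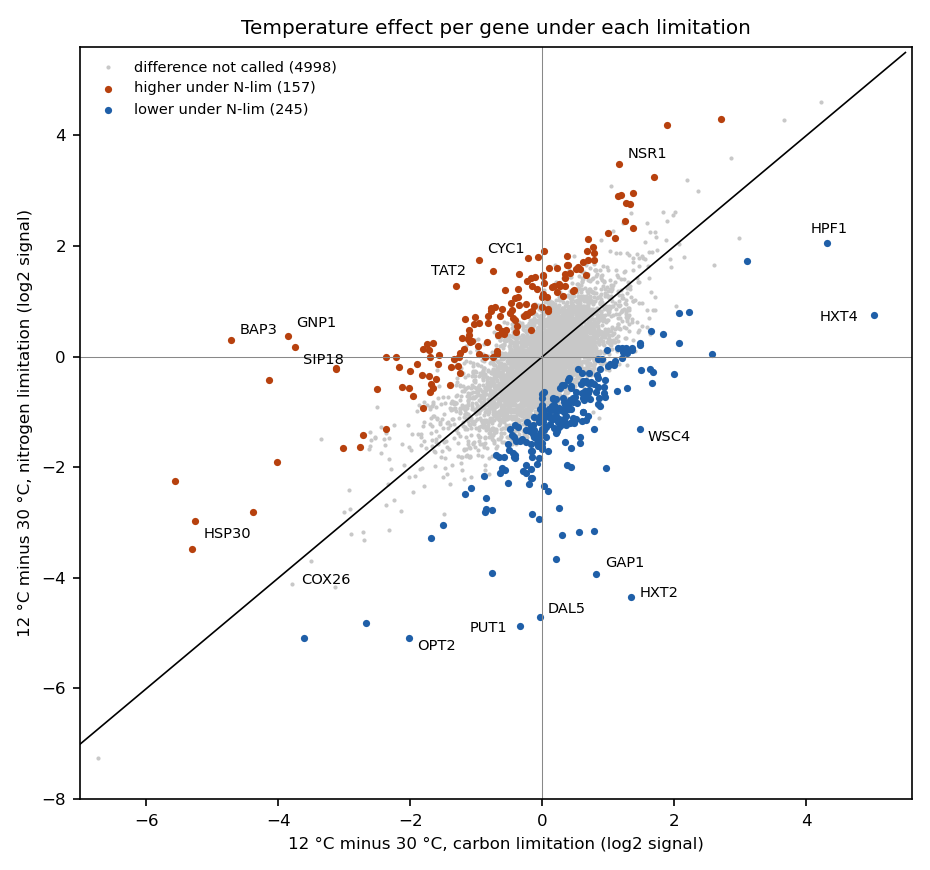
Temperature effect of each of the 5400 genes under nitrogen limitation (vertical axis) against that under carbon limitation (horizontal axis), both as log2 signal at 12 °C minus 30 °C. Genes on the black line have equal effects; the 157 genes with a higher effect under nitrogen limitation lie above it in red and the 245 with a lower one lie below it in blue.

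The commonest form of a difference was a fall at 12 °C seen under nitrogen limitation without a called change under carbon limitation, which held for 157 of the 245 genes with a lower effect. A further 41 of these genes rose under carbon limitation with no called change under nitrogen limitation, 20 fell under nitrogen and rose under carbon limitation, 17 fell under both, 6 rose under both and 4 passed neither test. Among the 157 genes with a higher effect, 54 rose under nitrogen limitation with no called change under carbon limitation and 48 fell under carbon limitation with no called change under nitrogen limitation. A further 24 rose under both, 15 fell under both, 15 rose under nitrogen and fell under carbon limitation, and 1 passed neither test.

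The N-lim and C-lim cultures were closer to each other at 12 °C than at 30 °C. The limitations differed in 306 genes at 12 °C (5.67%; 98 higher and 208 lower under nitrogen limitation) and in 1452 genes at 30 °C (26.9%; 771 higher and 681 lower). The 12 °C count was between 130 and 203 without replicate 2 at 12 °C or replicate 2 at 30 °C of N-lim, or replicate 2 or 3 at 12 °C or replicate 1 or 3 at 30 °C of C-lim cultures. With array weights per group in the fit, the counts were 77 at 12 °C and 2234 at 30 °C. Of the 402 genes whose temperature effect differed, 344 (85.6%) had the smaller gap between limitations at 12 °C, where 3364 of all 5400 genes (62.3%) did. Their median absolute gap was 0.33 at 12 °C and 1.09 at 30 °C on the log2 scale, against 0.26 and 0.37 over all genes. Since the difference is the gap at 12 °C minus that at 30 °C, a called gene must have a large gap at either temperature or gaps of opposite sign. The share describes at which temperature the larger gap lay. Leaving out the C-lim and N-lim arrays at 12 °C that resembled each other lowered these shares to 72.63% of called genes and 54.85% of all genes. The gap was called at 30 °C and not at 12 °C for 324 of the 402 genes, at 12 °C and not at 30 °C for 27, and at neither for 23. The fitted gap had opposite signs at the temperatures for 2082 of all genes (38.6%). Across genes the gaps at the temperatures correlated with r = 0.394 and rho = 0.369.

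The group mean that lay furthest from the mean of the other groups was that of N-lim cultures at 30 °C for 229 of the 402 genes (57%), on the high side for 160 and on the low side for 69. It was that of C-lim cultures at 30 °C for 115 genes (28.6%), N-lim cultures at 12 °C for 43 (10.7%) and C-lim cultures at 12 °C for 15 (3.73%). Over all genes tested these shares were 38.3%, 24%, 20.1% and 17.6%.

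**Figure D2:**
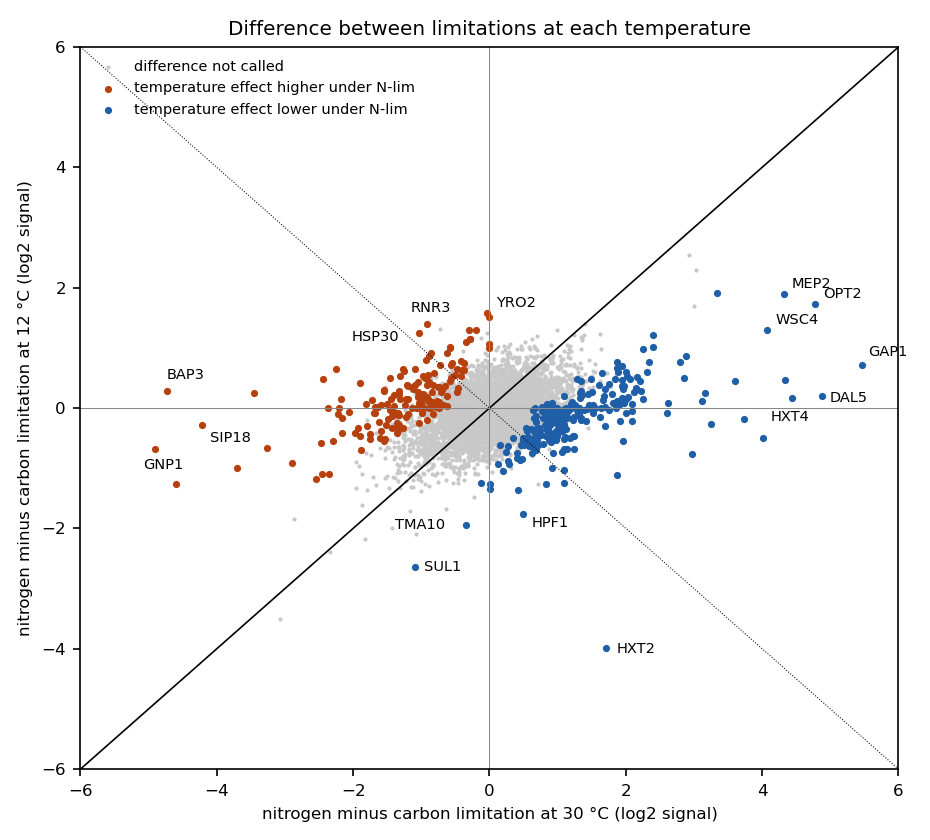
Gap between N-lim and C-lim cultures at 12 °C (vertical axis) against that at 30 °C (horizontal axis) for each gene, in log2 signal; the solid line marks equal gaps and the dotted line gaps of equal size and opposite sign. Most coloured genes, whose temperature effect differed, spread along the horizontal axis: their limitations are far apart at 30 °C and close at 12 °C, with HXT2, SUL1 and TMA10 among the exceptions.

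Genes under nitrogen catabolite repression were high in N-lim cultures at 30 °C and fell at 12 °C to near the level of the C-lim cultures. Of 16 such transporters tested, 11 had a lower temperature effect under nitrogen limitation and 5 did not pass, with a median difference of -1.53 against -0.10 over all genes. Their median temperature effect was -2.18 under nitrogen and 0.11 under carbon limitation. At 30 °C, 14 of the 16 were higher under nitrogen limitation (median gap 2.23), where 14.3% of all genes were. At 12 °C, 4 were higher (median gap 0.47), where 1.81% of all genes were.

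GAP1, the general amino acid permease, had signals of 231, 227 and 231 in N-lim cultures at 12 °C and 3132, 3468 and 3911 at 30 °C, and of 175, 115 and 134 in C-lim cultures at 12 °C and 82.3, 85.3 and 70.1 at 30 °C. All 3 N-lim arrays at 30 °C were far above every other array, and the other groups did not overlap with each other. GAP1 fell 15.2-fold at 12 °C under nitrogen limitation and rose 1.76-fold under carbon limitation, so that the difference was -4.74 ± 0.25 (SE, log2; adjusted p = 6.74e-09). DAL5, which carries allantoate, had signals of 116, 90.8 and 97.3 in N-lim cultures at 12 °C and 2519.9, 2799.5 and 2606 at 30 °C, and of 88.3, 86.9 and 87.1 in C-lim cultures at 12 °C and 97.9, 102 and 72.7 at 30 °C. Here the N-lim arrays at 12 °C overlapped with C-lim arrays and only the N-lim arrays at 30 °C stood apart. Its difference was -4.67 ± 0.25 (adjusted p = 6.74e-09), made up of a 26.2-fold fall under nitrogen limitation and an effect of -0.04 under carbon limitation that did not pass.

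The urea carrier DUR3 (difference -3.92), the proline permease PUT4 (-3.15), the oligopeptide transporter OPT2 (-3.06) and the vacuolar basic amino acid carrier VBA1 (-2.99) followed, with adjusted p from 2.88e-06 to 0.000102. OPT2 also fell under carbon limitation, 4.06-fold against 33.8-fold under nitrogen limitation. The remaining called transporters were the ammonium permeases MEP2 (-2.42) and MEP1 (-1.18), the GABA permease UGA4 (-1.57, on a probe set that may share probes with other sequences), the peptide carrier PTR2 (-1.48) and the allantoin permease DAL4 (-1.28). UGA4 lost its call in 14 and PTR2 in 5 of 23 alternatives. MEP2 kept a gap between limitations at 12 °C: its signals were 484, 534 and 521 in N-lim cultures at 12 °C and 1914, 2209 and 2003 at 30 °C, and 214, 89.2 and 138 in C-lim cultures at 12 °C and 124, 70.4 and 122 at 30 °C. All N-lim arrays of MEP2 were above all C-lim arrays at both temperatures.

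Enzymes that break down allantoin, urea, proline, arginine and GABA moved the same way in smaller number. Of 17 tested, 6 had a lower effect under nitrogen limitation, with a median of -0.88, and 11 did not pass. PUT1, the proline oxidase, had signals of 13.6, 18.6 and 20.8 in N-lim cultures at 12 °C and 499.7, 538 and 486 at 30 °C, and of 22.9, 25.6 and 25.6 in C-lim cultures at 12 °C and 35.3, 32.2 and 27.1 at 30 °C. At 12 °C the N-lim arrays were below all C-lim arrays by a gap that did not pass, and at 30 °C they were 16.2-fold above them. The difference of PUT1 was -4.52 ± 0.30 (adjusted p = 7.44e-08). The allantoin pathway genes DAL3 (-2.36), DAL1 (-2.01), DAL2 (-1.70), DCG1 (-1.50) and DAL7 (-1.40) were the other called members. DAL7 lost its call in 10 of 23 alternatives and DCG1 with a floor of 50.

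Among 5 regulators of nitrogen catabolite repression, 2 were called, both GATA factors with a lower effect. DAL80, the repressor, had signals of 43.6, 50.8 and 51.8 in N-lim cultures at 12 °C and 559.8, 649 and 634 at 30 °C, and of 54.4, 16.7 and 47.8 in C-lim cultures at 12 °C and 28.1, 29.8 and 33.8 at 30 °C. The N-lim arrays at 30 °C stood apart and the N-lim and C-lim arrays at 12 °C overlapped, with a difference of -3.86 ± 0.46 (adjusted p = 8.35e-05). The activator GAT1 had a difference of -2.04 ± 0.31 (adjusted p = 0.000799), with a 4.58-fold fall under nitrogen limitation. Of 4 ammonium assimilation genes, GLT1, the glutamate synthase, was called (-1.76, adjusted p = 0.000408), falling 2.10-fold under nitrogen and rising 1.61-fold under carbon limitation. The median of these 4 genes, -0.19, changed sign without both 12 °C arrays that resembled each other.

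Of 35 autophagy and vacuolar protease genes, 4 had a lower effect under nitrogen limitation, where 4.54% of all genes did, with a median of -0.39. The carboxypeptidase CPS1 had signals of 16.4, 12.6 and 38.4 in N-lim cultures at 12 °C and 294, 209.7 and 95.4 at 30 °C, and of 38.7, 26 and 38.2 in C-lim cultures at 12 °C and 25.6, 20.5 and 22.9 at 30 °C. Its arrays varied more than those of the permeases, and the difference was -3.74 ± 0.56 (adjusted p = 0.000689). ATG39, a receptor for autophagy of the nuclear envelope (-1.77), ATG14, a subunit of the lipid kinase complex (-1.36), and ATG8, the protein conjugated to the autophagosome membrane (-1.07), were the others. The call of ATG8 was lost in 14 of 23 alternatives. Each gene was counted in 1 list only, and the vacuolar proteases APE1 and PRB1, also lower, are counted with the general stress genes below.

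**Figure D3:**
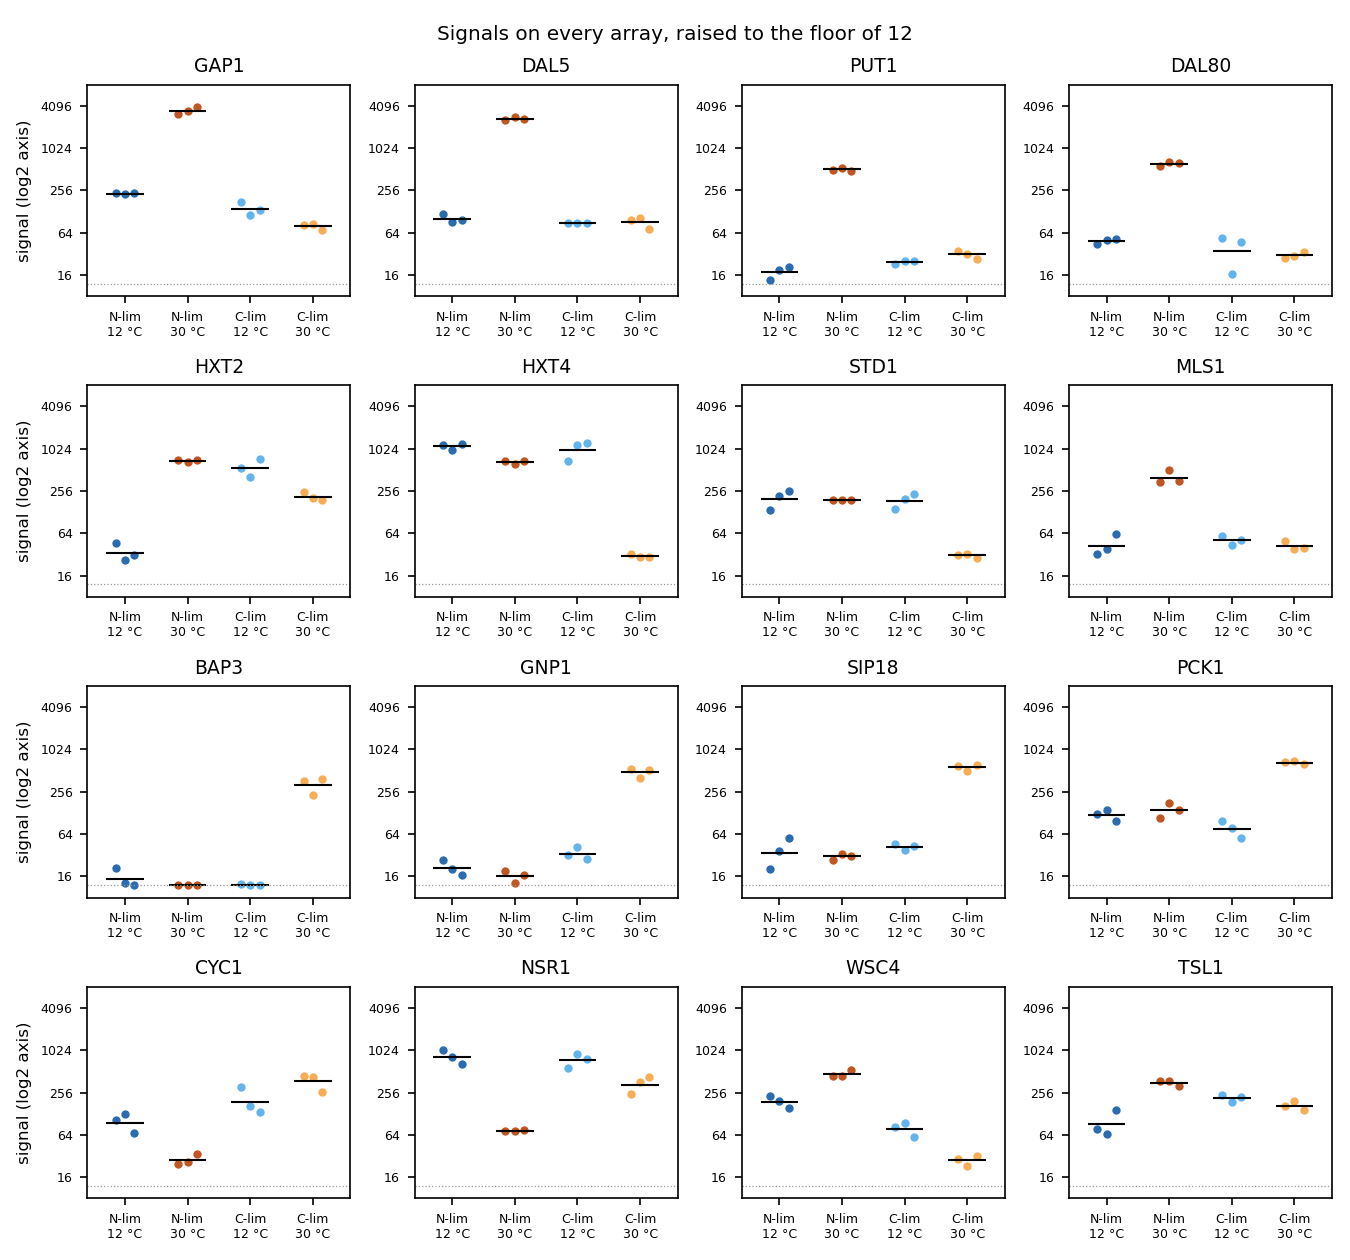
Signals of 16 genes on every array (points), raised to the floor of 12 (dotted line), on a log2 axis, with the geometric mean of each group as a bar. GAP1, DAL5, PUT1, DAL80 and MLS1 are high in N-lim cultures at 30 °C alone among the groups, BAP3, GNP1, SIP18 and PCK1 are high in C-lim cultures at 30 °C, HXT4 and STD1 are low there, and HXT2 is low in N-lim cultures at 12 °C.

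Amino acid permeases of nitrogen-rich conditions included several with high signals in C-lim cultures at 30 °C. Of 19 tested genes, 7 had a higher effect under nitrogen limitation, 1 a lower one and 11 did not pass, with a median of 1.01. Under carbon limitation 12 of the 19 fell at 12 °C (median -0.97), where 12.6% of all genes fell. Under nitrogen limitation 3 rose and 6 fell (median -0.17). At 30 °C, 9 of the 19 were lower and 4 higher under nitrogen limitation (median gap -0.09), and at 12 °C 1 was lower and 1 higher. BAP3, a permease of branched-chain amino acids, had signals of 21.1, 12.7 and 10.6 in N-lim cultures at 12 °C and 3.9, 5.6 and 5.1 at 30 °C, and of 12.5, 11.2 and 8.7 in C-lim cultures at 12 °C and 361, 232 and 393 at 30 °C. Only the C-lim cultures at 30 °C had a level well above the floor of 12. The N-lim arrays at 30 °C were all below that floor, so the difference is at least 5.02 (adjusted p = 9.64e-08).

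GNP1, the glutamine permease, had signals of 27.6, 20.3 and 16.7 in N-lim cultures at 12 °C and 19.4, 12.9 and 17 at 30 °C, and of 32, 41.9 and 28.3 in C-lim cultures at 12 °C and 549, 396 and 524 at 30 °C. The N-lim arrays overlapped between temperatures, while the C-lim arrays fell 14.4-fold at 12 °C, with a difference of 4.23 ± 0.35 (adjusted p = 1.59e-06). TAT2, the tryptophan and tyrosine permease, moved in opposite directions. Its signals were 37, 25.2 and 33.2 in N-lim cultures at 12 °C and 14.4, 12.4 and 10.4 at 30 °C, and 47.2, 49.3 and 52.7 in C-lim cultures at 12 °C and 134, 100.5 and 139.7 at 30 °C. The 4 groups did not overlap, and TAT2 rose 2.44-fold under nitrogen and fell 2.49-fold under carbon limitation (difference 2.60 ± 0.30, adjusted p = 5.5e-05). BAP2 (1.99), the S-methylmethionine permease MMP1 (1.90) and the histidine permease HIP1 (1.57) were also higher. The methionine permease MUP1 was called higher, but its N-lim arrays at 12 °C were all below the floor and its fitted difference is no bound. The member with a lower effect was PTR3 of the amino acid sensor complex (-1.12, adjusted p = 0.0451), a call lost in 16 of 22 alternatives.

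Hexose carriers differed from each other in which group stood apart. Of 21 tested hexose transport and sensing genes, 5 had a lower and 2 a higher effect under nitrogen limitation, with a median of -0.68. HXT2, a high-affinity glucose carrier, had the largest measured difference of the 402 genes. Its signals were 46.7, 26.6 and 31.7 in N-lim cultures at 12 °C and 703, 669 and 716 at 30 °C, and 537, 408 and 726 in C-lim cultures at 12 °C and 246, 204 and 192 at 30 °C. The N-lim arrays at 12 °C were below all others, and the C-lim arrays at 12 °C were above those at 30 °C. HXT2 fell 20.5-fold under nitrogen and rose 2.55-fold under carbon limitation, a difference of -5.70 ± 0.32 (adjusted p = 1.49e-08). It was 15.9-fold lower in N-lim than in C-lim cultures at 12 °C and 3.27-fold higher at 30 °C.

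HXT4, a carrier induced at low glucose, had signals of 1149, 990.3 and 1202 in N-lim cultures at 12 °C and 684, 615 and 679 at 30 °C, and of 690.2, 1148 and 1228 in C-lim cultures at 12 °C and 32.6, 29.5 and 29.4 at 30 °C. Only the C-lim cultures at 30 °C were low. HXT4 rose 1.69-fold under nitrogen and 32.5-fold under carbon limitation, with a difference of -4.27 ± 0.28 (adjusted p = 7.44e-08). STD1, a regulator in the glucose sensing pathway, had the same arrangement, at 136, 219 and 256 in N-lim cultures at 12 °C and 189, 191 and 191 at 30 °C, and 143, 194 and 229 in C-lim cultures at 12 °C and 31.7, 33 and 28.7 at 30 °C (difference -2.53 ± 0.33, adjusted p = 0.000186). The 3 other groups of STD1 overlapped.

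HXT5, a carrier of slow-growing cells, fell under both limitations. Its signals were 14.8, 16 and 13.3 in N-lim cultures at 12 °C and 178, 136 and 180.5 at 30 °C, and 4.1, 7.7 and 4.5 in C-lim cultures at 12 °C and 429.5, 419.7 and 605 at 30 °C. The fall was 11.1-fold under nitrogen limitation and at least 39.8-fold under carbon limitation, where all arrays at 12 °C lay below the floor, a difference of at least 1.84 (adjusted p = 0.00122). The low-affinity carriers HXT3 (-1.42) and HXT1 (a difference of -1.38, whose size is at least that) were the other called members with values, and HXT14 was called higher with all of its groups below the floor except C-lim cultures at 30 °C. HXT1 lost its call in 11 of 23 alternatives and HXT14 with a floor of 1. Because HXT genes resemble each other in sequence, signal from a relative may be included in these values.

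Gluconeogenic and glyoxylate cycle genes were called in both directions. Of 31 tested, 2 were higher and 2 lower, where 2.91% and 4.54% of all genes were, with a median of 0.29. At 12 °C 17 fell under carbon and 12 under nitrogen limitation, where 12.6% and 22.3% of all genes fell. PCK1, phosphoenolpyruvate carboxykinase of gluconeogenesis, had signals of 123, 140.1 and 97.2 in N-lim cultures at 12 °C and 109, 174 and 142 at 30 °C, and of 97.8, 78.5 and 56.9 in C-lim cultures at 12 °C and 668, 701 and 628 at 30 °C. It was high in C-lim cultures at 30 °C alone and overlapped between temperatures under nitrogen limitation (difference 2.90 ± 0.32, adjusted p = 3.91e-05). MLS1, malate synthase of the glyoxylate cycle, had signals of 32.3, 37.7 and 63.3 in N-lim cultures at 12 °C and 343, 502 and 360.1 at 30 °C, and of 58.2, 44.1 and 52.2 in C-lim cultures at 12 °C and 49, 37.7 and 39.3 at 30 °C. Its arrangement was that of the allantoin genes, high in N-lim cultures at 30 °C alone (difference -3.51 ± 0.36, adjusted p = 1.6e-05). The citrate synthase CIT3 (1.06) and the malate dehydrogenase MDH2 (-0.90) were the others, and CIT3 lost its call in 10 of 22 and MDH2 in 16 of 23 alternatives.

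Most respiratory genes were lower in N-lim than in C-lim cultures at 30 °C, and fewer were at 12 °C. Of 37 genes of the respiratory chain and ATP synthase, 10 had a higher effect under nitrogen limitation and 27 did not pass, with a median of 0.76, and 33 of the 37 differences were above 0. At 12 °C 17 fell under carbon limitation (median -0.51), and under nitrogen limitation 9 rose and 5 fell (median 0.19). The N-lim cultures were below the C-lim cultures in 12 of the 37 genes at 12 °C (median -0.45) and in 35 at 30 °C (median -1.05), where 3.85% and 12.6% of all genes were. CYC1, iso-1-cytochrome c, had signals of 103, 126 and 67.2 in N-lim cultures at 12 °C and 24.7, 26.7 and 34.3 at 30 °C, and of 307, 164 and 136 in C-lim cultures at 12 °C and 440, 430.2 and 265 at 30 °C. The N-lim arrays were below the C-lim arrays at both temperatures, and the C-lim arrays overlapped between temperatures. CYC1 rose 3.37-fold under nitrogen and fell 1.94-fold under carbon limitation (difference 2.71 ± 0.44, adjusted p = 0.0012).

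The cytochrome bc1 subunits QCR2 (1.85), QCR10 (1.44), CYT1 (1.13) and RIP1 (1.09) and the cytochrome oxidase subunits COX4 (1.63), COX6 (1.60) and COX5A (1.36) were also higher, with QCR10 losing its call in 4 of 23 alternatives. RGI2, a gene of respiratory growth, had signals of 3.8, 6.3 and 8.9 in N-lim cultures at 12 °C and 55.1, 45.5 and 72.7 at 30 °C, and of 31.2, 33.7 and 23 in C-lim cultures at 12 °C and 1437, 1173 and 1521 at 30 °C. The limitations were far apart at 30 °C, but the N-lim arrays at 12 °C were below the floor, so no size is given for the difference; the same holds for the external NADH dehydrogenase NDE2, whose call was lost in 10 of 22 alternatives. SHH3, a homologue of the succinate dehydrogenase membrane anchor outside these lists, fell 8.70-fold under carbon limitation (difference 2.92 ± 0.29, adjusted p = 9.06e-06). Of 21 TCA cycle genes, SDH2, the iron-sulfur subunit of succinate dehydrogenase, was called (1.09), with a list median of 0.18. Of 28 genes that turn glucose into ethanol and glycerol, the alcohol dehydrogenase ADH5 was higher (1.10) and the glycerol phosphate dehydrogenase GPD1 lower (-0.90), a call lost with equal array medians, and the list median of -0.13 changed sign there.

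Genes for making ribosomes rose at 12 °C under both limitations and further under nitrogen limitation for some. Of 146 ribosome biogenesis genes, 88 rose under nitrogen limitation (median 0.86) and 62 under carbon limitation (median 0.59), where 15.9% and 13.1% of all genes rose. The difference was higher for 15 and lower for 1, with a median of 0.28. NSR1, a nucleolar protein of pre-rRNA processing, had signals of 1048, 818 and 649 in N-lim cultures at 12 °C and 72.5, 73.3 and 75.2 at 30 °C, and of 579.7, 917 and 775 in C-lim cultures at 12 °C and 243, 357 and 423 at 30 °C. The limitations overlapped at 12 °C and stood apart at 30 °C, where N-lim cultures were low. NSR1 rose 11.2-fold under nitrogen and 2.24-fold under carbon limitation (difference 2.32 ± 0.32, adjusted p = 0.000324).

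The small-subunit processing factors RCL1 (1.88) and IMP3 (1.87) had no called temperature effect under carbon limitation, and TSR3, an rRNA modification enzyme, was the member with a lower effect (-0.99), a call lost in 15 of 22 alternatives. Of 80 cytosolic ribosomal protein genes tested, 56 rose under nitrogen and 15 under carbon limitation, where 15.9% and 13.1% of all genes rose. A called difference was found for 2 of the 80 (2.5%), against 7.44% of all genes. They were RPL9A (1.99) and RPL36B (0.78), both on probe sets that may share probes with their near-identical copies. RPL36B lost its call in 4 of 22 alternatives. The list median was 0.32. Of 36 subunits of RNA polymerases I and III, RPA49 was higher (1.24) and RRN6, of the polymerase I core factor, lower (-1.18), a call that RRN6 lost in 10 of 23 alternatives; the list median was -0.01 and changed sign in 8 of the 23 alternatives.

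Storage carbohydrate genes fell at 12 °C under nitrogen limitation. Of 22 trehalose and glycogen genes, 14 fell under nitrogen limitation (median -1.04), where 22.3% of all genes fell, and 4 under carbon limitation (median -0.22), where 3 others rose. The difference was lower for 5 and did not pass for 17, with a median of -0.57, and was below 0 for all 22. TSL1, a regulatory subunit of trehalose synthase, had signals of 76.8, 66.6 and 144 in N-lim cultures at 12 °C and 373, 372 and 315 at 30 °C, and of 234, 186 and 224 in C-lim cultures at 12 °C and 164, 193 and 144 at 30 °C. The N-lim cultures were below the C-lim cultures at 12 °C and above them at 30 °C, without overlap, and the difference was -2.33 ± 0.34 (adjusted p = 0.000579). The glycogen synthase GSY1 crossed in the same way (-2.10), and the glycogen phosphorylase GPH1 (-1.68) and the trehalose synthase subunits TPS3 (-1.21) and TPS1 (-1.11) were the other called members. TPS3 lost its call in 11 and TPS1 in 10 of 23 alternatives.

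General stress genes were called in both directions. Of 55 tested, 5 were higher and 8 lower, where 2.91% and 4.54% of all genes were, and the median of 0.01 changed sign in 10 of the 23 alternatives. At 12 °C 29 fell under nitrogen and 26 under carbon limitation, where 22.3% and 12.6% of all genes fell. SIP18, a hydrophilin of dehydration, had signals of 20.6, 36.7 and 55.7 in N-lim cultures at 12 °C and 27.5, 33.7 and 31.4 at 30 °C, and of 46.1, 38.5 and 42.9 in C-lim cultures at 12 °C and 600.2, 509 and 613 at 30 °C. GRE1, another hydrophilin, had 15.4, 16.3 and 15.9 in N-lim cultures at 12 °C and 24.7, 22.8 and 17.3 at 30 °C, and 13, 15.1 and 9.4 in C-lim cultures at 12 °C and 246, 195 and 267 at 30 °C. Both were high in C-lim cultures at 30 °C alone among the groups, with differences of 3.93 ± 0.40 and 3.71 ± 0.29 (adjusted p = 1.27e-05 and 5.7e-07).

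The plasma membrane stress protein HSP30 (2.29) fell 7.87-fold under nitrogen and 38.4-fold under carbon limitation, and the aldehyde dehydrogenase ALD2 (-2.69) fell 7.16-fold under nitrogen limitation alone among the calls. The small heat shock protein HSP26 was higher (1.58), as was ECL1 (1.95, adjusted p = 0.00869), a lifespan factor outside the list, and the vacuolar aminopeptidase APE1 (-1.89), PHM7 (-1.60), TMA10 (-1.60), the thioredoxin peroxidase TSA2 (-1.23), the vacuolar protease PRB1 (-1.20) and the DNA damage-responsive gene DDR48 (-0.80) were lower. PNS1 was lower with a size of at least 1.58, and FMP45 was called higher with no bound. The call was lost in 13 of 23 alternatives for DDR48 and in 9 for both TSA2 and FMP45. Of 32 heat shock chaperones, 16 fell under nitrogen and 14 under carbon limitation, where 22.3% and 12.6% of all genes fell. SSA4, a stress-induced Hsp70, was the called member (-1.30), and the list median of -0.16 changed sign with equal array medians.

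Cell surface genes held some of the largest temperature effects. Of 44 cell wall and flocculin genes, 2 had a higher and 7 a lower effect, with a median of -0.20. FLO11, the flocculin of invasive and biofilm growth, fell 28.1-fold under nitrogen and 6.39-fold under carbon limitation (difference -2.14 ± 0.32, adjusted p = 0.000676). It had signals of 81.6, 63.8 and 75.5 in N-lim cultures at 12 °C and 2202, 1913 and 2064 at 30 °C, and of 87.7, 86.6 and 81.7 in C-lim cultures at 12 °C and 869, 434 and 428 at 30 °C. HPF1, a mannoprotein, rose 4.16-fold under nitrogen and 19.8-fold under carbon limitation (-2.25, adjusted p = 0.00158), and PIR3, a wall structural protein, rose further under nitrogen limitation (1.58). The glucan synthase subunit GSC2 (-1.93) lost its call when the mean of its probe sets was used. PST1 (1.06) was higher, and SUN4 (-1.01), DSE4 (-0.96), TOS1 (-0.83) and EGT2 (-0.83) were lower. The calls of SUN4, DSE4, TOS1 and EGT2 were lost in 9, 12, 14 and 15 of 23 alternatives, and that of PST1 in 1. Of 15 genes listed with the Tir, Dan and Pau mannoproteins of anaerobic cells, 4 were lower with a median of -0.43: the mannoproteins DAN4 (-1.99), TIR2 (-1.17) and PAU4 (-0.90, shared probes possible), and YSR3 (-1.11), which is a sphingolipid phosphatase and no mannoprotein. PAU4 lost its call in 11 of 22 alternatives.

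WSC4, a membrane protein of stress sensing at the cell surface that belongs to no list used here, separated all 4 groups. It had signals of 229.8, 191 and 156 in N-lim cultures at 12 °C and 437, 444 and 532 at 30 °C, and of 82.3, 94.5 and 59.4 in C-lim cultures at 12 °C and 29.4, 22.9 and 32.1 at 30 °C. It fell 2.48-fold under nitrogen and rose 2.78-fold under carbon limitation (-2.78 ± 0.32, adjusted p = 5.18e-05).

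Of 46 genes of fatty acid and phospholipid synthesis, 1 was higher and 5 lower, with a median of -0.25, where 2.91% of all genes were higher and 4.54% lower in a split that depends on the scaling. INO1, inositol phosphate synthase, had signals of 715, 347 and 480.1 in N-lim cultures at 12 °C and 683, 619.9 and 539 at 30 °C, and of 608, 558 and 552 in C-lim cultures at 12 °C and 144, 162 and 126 at 30 °C. It was low in C-lim cultures at 30 °C alone (-2.31 ± 0.30, adjusted p = 0.000183). The fatty acid elongase ELO1 was higher (1.77), and the acyl-CoA synthetase FAA1 (-1.73), the mitochondrial acetyl-CoA carboxylase HFA1 (-1.37), the ethanolamine kinase EKI1 (-1.17) and the acyltransferase LRO1 (-1.11) were lower; FAA1 lost its call in 12, EKI1 in 7 and LRO1 in 4 of 23 alternatives. Of 37 sterol genes, 2 were higher and 4 lower, with a median of -0.17 that changed sign with equal array medians. HES1, an oxysterol-binding protein homologue, fell 5.37-fold under nitrogen limitation (-2.51 ± 0.29, adjusted p = 6.18e-05). The sterol importers PDR11 (-1.45) and AUS1 (-1.36) and the activator UPC2 (-1.33) were also lower, and the regulator SUT1 (1.37) and the reductase ERG4 (1.29) higher. UPC2 lost its call in 14, PDR11 in 11, SUT1 in 10 and ERG4 in 10 of 23 alternatives. Another probe set of AUS1 had a fitted difference of the other sign, and its call was lost with the mean of the probe sets.

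The remaining lists had 0 to 6 called members each. Of 18 phosphate starvation genes, 6 were lower with a median of -0.67, led by SPL2 (-1.86), a regulator of phosphate carriers, VTC2 (-1.35), of the polyphosphate polymerase complex, and the phosphate carrier PHO89 (-1.28), whose call was lost in 12 of 23 alternatives. Of 16 purine synthesis genes, 4 were higher with a median of 0.15, all in the GMP branch: the IMP dehydrogenases IMD4 (1.75), IMD2 (1.24) and IMD3 (1.07), of which IMD2 and IMD3 may share probes, and GUA1 (1.03), whose call was lost in 5 of 23 alternatives. Of 15 genes listed with thiamine, 2 were higher with a median of 0.25, SNO1 (1.75) and SNZ1 (1.60), which make vitamin B6. Of 69 amino acid biosynthesis genes, 4 were higher, SER1 (1.48), LYS20 (1.09), ILV5 (1.07) and LEU9 (1.04), of which ILV5 lost its call in 6 and LEU9 in 5 of 23 alternatives, and ARO10 was called lower with 3 groups below the floor; the median of 0.04 changed sign in 2 of the 23 alternatives.

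Of 27 sulfur and methionine genes, SUL1, the high-affinity sulfate permease, was lower (-1.55), with a list median of -0.23. Of 29 iron and zinc genes, the zinc carrier ZRT1 (-1.85) and the low-affinity iron carrier FET4 (-1.58) were lower and IZH1 (0.72), whose call was lost in 10 of 23 alternatives, higher; the median of 0.07 changed sign in 5 of the 23 alternatives, and another probe set of ZRT1 had a fitted difference of the other sign. Of 34 mating genes, 3 were higher, PRM5 (1.92), FIG1 (1.57) and MF(ALPHA)2 (no bound, its call lost in 12 of 23 alternatives), and PRM7 was lower (-1.61), with a median of 0.46. Of 34 cell cycle and histone genes, RNR3 (2.31) and RNR4 (0.65), subunits of ribonucleotide reductase, were higher and NRM1 (-1.40), SIC1 (-1.33) and RNR1 (-0.98) lower, with a median of -0.36, and RNR4 lost its call in 11 and SIC1 in 10 of 23 alternatives. Of 18 hypoxic and heme genes, HEM14 of heme synthesis was lower (-1.28), with a median of 0.04 that changed sign in 2 alternatives. Of 37 proteasome genes, 0 passed limma's test of the difference and 1 had an unadjusted p under 0.05, with a median of -0.08 that changed sign with equal array medians.

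**Figure D4:**
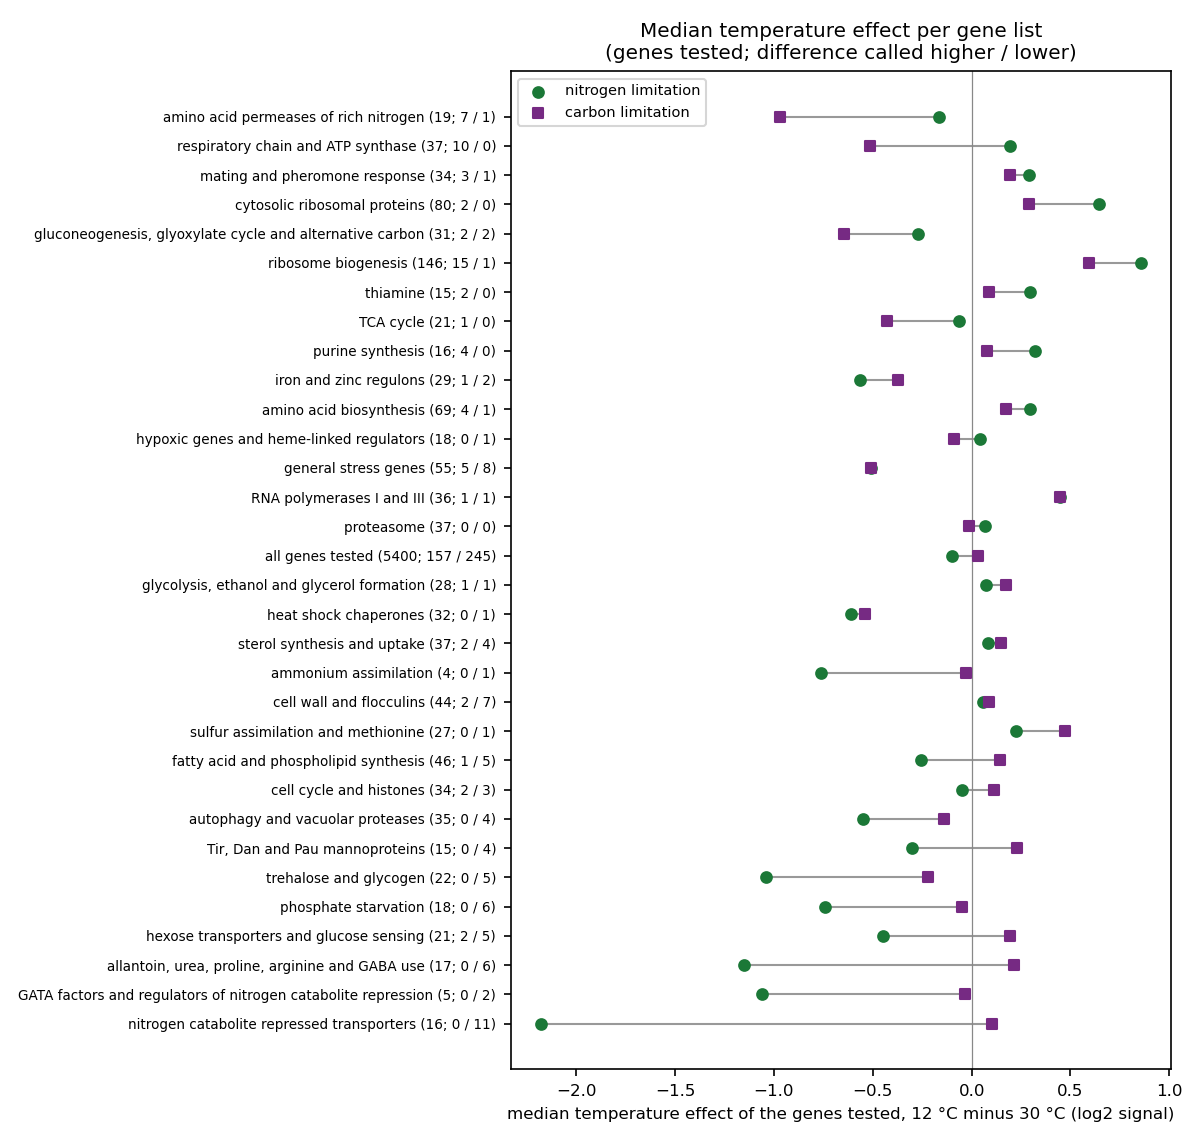
Median temperature effect (12 °C minus 30 °C, log2 signal) of the genes tested in each of 31 lists and in all genes, under nitrogen limitation (green circles) and carbon limitation (purple squares), ordered by the median difference. The gap between the symbols is widest for the transporters under nitrogen catabolite repression, at -2.18 and 0.11, and the numbers in parentheses are the genes tested and those called higher and lower.

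**Figure D5:**
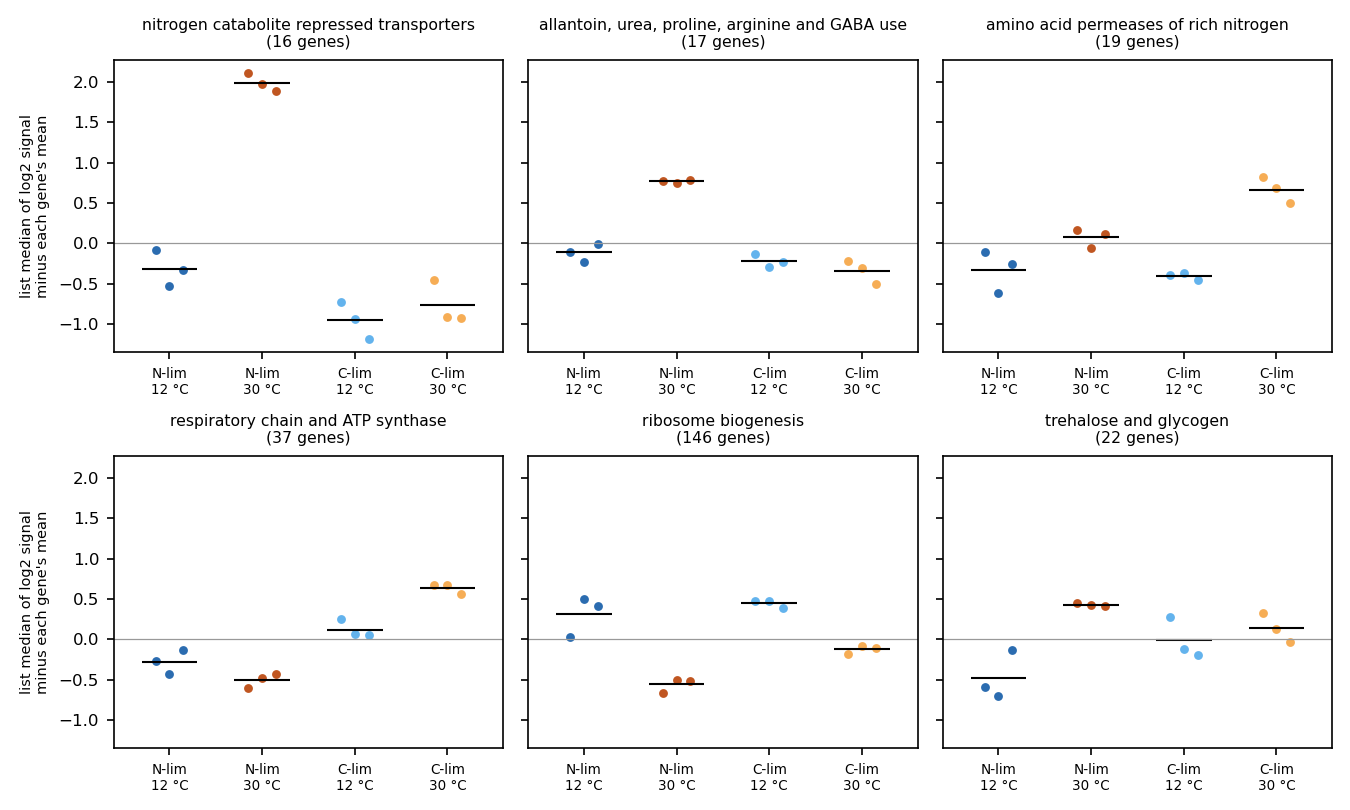
Median over 6 lists of log2 signal minus each gene's mean over all arrays, on each array (points), with the group mean as a bar. N-lim arrays at 30 °C are the highest for the nitrogen catabolite repressed transporters (1.89 to 2.11) and the lowest for ribosome biogenesis (-0.66 to -0.50), and C-lim arrays at 30 °C are the highest for the rich-nitrogen permeases (0.50 to 0.82) and the respiratory genes (0.57 to 0.67).

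A called change in opposite directions under the limitations was found for 35 genes (0.648%), all with a called difference. The count was between 17 and 22 without replicate 2 or 3 of N-lim cultures or any 1 replicate of C-lim cultures at 30 °C. Under nitrogen limitation 15 of them rose and 20 fell. Beside TAT2 and CYC1, the genes that rose under nitrogen and fell under carbon limitation included COX23, a factor of cytochrome oxidase assembly (effects 0.88 and -0.78), the exporter AQR1 (0.82 and -0.77), RNR3 (1.55 and -0.76, shared probes possible), the phosphoribosyl pyrophosphate synthetase PRS3 (0.89 and -0.72), the lactate dehydrogenase DLD3 (0.71 and -1.03) and the mitochondrial ribosomal protein MRPL6 (0.74 and -0.82). MRPL6 lost the call of its difference in 6 alternatives. The genes that fell under nitrogen and rose under carbon limitation included, beside HXT2, GAP1, DUR3, GLT1, GPH1 and WSC4, the mitotic exit kinase CDC15 (-0.89 and 0.87) and the ubiquitin ligase HUL4 (-0.85 and 0.84). The protein kinase RIM15 (-0.64 and 0.82) and the nitrilase NIT1 (-0.62 and 1.13) were in this set too and were picked out after their values were seen. CDC15 had signals near the floor of 12, at 19.4, 13.7 and 14.7 in N-lim cultures at 12 °C and 10.5, 14.5 and 15 in C-lim cultures at 30 °C.

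For 58 of the 402 genes the gap between limitations was larger at 12 °C than at 30 °C, and for 38 of these it was called at 12 °C. HXT2 had the largest gap at 12 °C of these 38. SUL1 had signals of 41.2, 36.5 and 31.6 in N-lim cultures at 12 °C and 263, 408 and 253 at 30 °C, and of 289, 249 and 159 in C-lim cultures at 12 °C and 668, 630.3 and 617 at 30 °C. It fell under both limitations and its N-lim arrays at 12 °C lay below all others, 6.22-fold under the C-lim arrays. The next were TMA10, a ribosome-associated stress gene (gaps of -1.94 at 12 °C and -0.35 at 30 °C), HPF1 (-1.76 and 0.49) and YRO2, a membrane protein gene (1.58 and -0.03). TMA10 and YRO2 were named by their rank here after their values were seen. A called gap at both temperatures with opposite signs was found for 11 genes, ELO1, GSY1, HFA1, HSP30, HXT2, LEE1, MFG1, PBI1, PRY1, RNR3 and TSL1. At 12 °C the adjusted p of limma's test of the gap was 0.0494 for HSP30, 0.0447 for MFG1 and 0.0382 for HFA1, against 5.18e-08 for HXT2. HFA1 had signals of 5.7, 13.4 and 18 in N-lim cultures at 12 °C, near the floor of 12. Whether the gap calls of single genes hold in the alternatives was not tested.

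Most temperature responses could not be told apart between the limitations. Of 815 genes called under both limitations in the same direction (15.1%; 381 rose, 7.06%, and 434 fell, 8.04%), 62 had a called difference (1.15%). For 451 of them (8.35% of all genes; 240 rose, 4.44%, and 211 fell, 3.91%) the 95% interval of the difference lay within 2-fold either way; this count was 297 without replicate 2 of N-lim cultures and 256 and 269 without replicates 1 and 3 of C-lim cultures at 30 °C. Over all genes the interval lay within 2-fold for 2367 (43.8%). LYS1, the last enzyme of lysine synthesis, had signals of 1029.8, 922 and 781 in N-lim cultures at 12 °C and 277, 268 and 233 at 30 °C, and of 1112, 1123 and 1346 in C-lim cultures at 12 °C and 212, 290.5 and 317 at 30 °C. It rose 3.50-fold and 4.41-fold under nitrogen and carbon limitation, with an interval of the difference from -0.86 to 0.20.

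CDA2, a chitin deacetylase of the spore wall on a probe set that may share probes, rose 4.32-fold and 3.67-fold (interval -0.30 to 0.77), and CWP1, a wall mannoprotein, 3.40-fold and 2.93-fold (-0.41 to 0.83). AZR1, BIO4, EMA35, AIM20 and ALB1 were the other rising genes with the largest shared effects, between 2.67-fold and 3.69-fold under nitrogen limitation. COX26, a cytochrome oxidase subunit, fell 17.2-fold and 13.8-fold (interval -0.92 to 0.29), CRS5, a metallothionein gene that RefSeq annotates as a pseudogene, 6.74-fold and 7.52-fold (-0.38 to 0.69), and the wall protein gene SPI1 6.43-fold and 5.19-fold. The N-lim signals of COX26 at 12 °C, 11.4, 15.1 and 14.8, lay near the floor of 12. Over 23 alternatives the difference of COX26 ranged from -0.45 to 0.94, and the lowest adjusted p of limma's test was 0.0273. SUF6, a tRNA gene whose probe set may share probes, IGD1, GDH3, CCC2 and SSU1 were the other falling genes. The differences of EMA35 and IGD1 were called in 1 alternative each.

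Of the 5400 genes, 141 did not code for protein, and the difference was called for 20 of them. Among 40 snoRNAs, 5 were higher and 3 lower, and among 83 tRNA genes 6 were higher and 1 lower. The floor limits some of these snoRNAs: SNR50, SNR76 and SNR17A have a size of at least the fitted value, and SNR45 has no stated size. Over all genes the difference was called for 7.44%, higher for 2.91% and lower for 4.54%. SNR67, a snoRNA guide of rRNA methylation, had signals of 1146, 559 and 545 in N-lim cultures at 12 °C and 77.1, 30.4 and 24.1 at 30 °C, and of 355, 686 and 607 in C-lim cultures at 12 °C and 253, 103 and 111 at 30 °C. It rose under both limitations, with a difference of 2.31 ± 0.61 (adjusted p = 0.0286) that did not pass when replicate 2 or 3 of N-lim cultures at 30 °C, or replicate 1 of C-lim cultures at 12 °C or at 30 °C, was left out. RPR1, the RNA of ribonuclease P, was lower (-1.86, adjusted p = 0.000823) and was chosen after its value was seen. Its signals were well above the floor of 12 only in N-lim cultures at 30 °C, at 48.4, 61.1 and 64.8. They were 16.4, 9.2 and 14 in N-lim cultures at 12 °C, and 7.5, 14.1 and 11.6 at 12 °C and 18.8, 13.1 and 4 at 30 °C in C-lim cultures. The size of its difference therefore depends on the floor. The labels give polyA RNA as the molecule, and how much of the RNA without a polyA tail the preparation kept was not tested.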

How the data were processed

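Transcripts were measured on 12 Affymetrix yeast arrays. The deposited values are linear intensities per probe set, made with GCOS per the submitters' processing notes, whose version is not given in the sources used here; the mean after trimming 2% at each end was 150.1 on every array. Of 9335 probe sets, 6504 had 1 gene name, 328 had several and 2503 were not listed. Each of 5656 genes was read by its brightest probe set with 1 name, and probe sets with several names were fitted apart.

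Intensities under 12 were raised to 12 and log2 transformed, and 5400 genes with at least 3 arrays above that floor were kept. Group means were fitted with limma 3.58.1 in R 4.3.3 (eBayes with an intensity trend), p-values were adjusted by Benjamini-Hochberg over all 5400 genes, and the threshold was 0.05. A permutation test of 3 against 3 arrays cannot go below an exact p of 0.1, so none was used. The number of arrays limits the precision: the median standard error of a difference was 0.316. Where a group lay at the floor on all its arrays, a size is given as "at least", or not at all where it could be smaller than fitted. The fits were tested on simulated data in which each gene had the same spread in all groups and no floor was applied. That test therefore does not cover the unequal spread of the groups or signals at the floor.

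The text names the 15 genes each way with the largest called difference of known size, the 8 each way with the largest called effects in opposite directions, the 8 rising and 8 falling genes with the largest shared effects, and up to 3 called members per list with the largest against its majority. Further called list members were added after their values were seen. The members and lists were chosen with earlier results of these data known. Genes with only a systematic name were counted and not named. Alternatives covered the floor, the filter, the scaling, the choice of probe set, the variance model, the replicate number as a block and arrays left out. Replicate numbers were not used as pairs: 3 of 18 same-numbered pairs had deviations correlated above 0.1.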

Additional observations from a re-analysis of the deposited data

Results flagged for a closer look

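The temperature effect differed between nitrogen and carbon limitation, by limma's test of that difference, for 402 genes. The genes with the largest difference, as log2 of the effect under nitrogen limitation minus that under carbon limitation, are singled out here because the test was of the difference itself. On the higher side these were BAP3 (at least 5.02), GNP1 (4.23), SIP18 (3.93), GRE1 (3.71), SHH3 (2.92), PCK1 (2.90), CYC1 (2.71), TAT2 (2.60), NSR1 (2.32), SNR67 (2.31), RNR3 (2.31), HSP30 (2.29), RPL9A (1.99), BAP2 (1.99) and ECL1 (1.95). On the lower side they were HXT2 (-5.70), GAP1 (-4.74), DAL5 (-4.67), PUT1 (-4.52), HXT4 (-4.27), DUR3 (-3.92), DAL80 (-3.86), CPS1 (-3.74), MLS1 (-3.51), PUT4 (-3.15), OPT2 (-3.06), VBA1 (-2.99), WSC4 (-2.78), ALD2 (-2.69) and STD1 (-2.53). The call of SNR67 was lost in 6 of 23 alternatives, and the values of RNR3 and RPL9A may include signal from related genes.

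A further set changed in opposite directions under the limitations. Beside TAT2, CYC1 and RNR3, the differences were COX23 (1.66), AQR1 (1.59), MRPL6 (1.57), PRS3 (1.61) and DLD3 (1.74) for genes that rose under nitrogen and fell under carbon limitation. Beside HXT2, WSC4, GAP1 and DUR3, they were CDC15 (-1.77), HUL4 (-1.70), GPH1 (-1.68) and GLT1 (-1.76) for genes that fell under nitrogen and rose under carbon limitation. The call of MRPL6 was lost in 6 of 23 alternatives. The signals of CDC15 lay near the floor of 12 in N-lim cultures at 12 °C and in C-lim cultures at 30 °C.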

How the results depend on the processing

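Under 23 alternatives, 12 of which left out 1 array each, 113 of 170 genes with a called difference (those of the naming rule, the other called list members and the genes picked out after their values were seen) kept their call, 57 lost it in at least 1 alternative and 0 changed direction. With equal array medians, 270 genes were higher, against 157 as deposited. With array weights per group, the limitations differed in 77 genes at 12 °C and 2234 at 30 °C, against 306 and 1452. With the replicate number as a block (replicate block), the difference was called for 344 genes; the numbers do not pair the arrays. Leaving out 1 array in turn gave 236 to 481 genes with a called difference (87 to 206 higher, 139 to 275 lower), 918 to 1692 with a temperature effect under carbon limitation, 130 to 393 that differed between limitations at 12 °C, 17 to 44 in opposite directions and 256 to 513 shared within 2-fold; fewer arrays in a group widen the error. The other alternatives gave 343 to 464 genes with a called difference. The cause of the scaling and weighting shifts was not tested. Signals near the floor of 12 limit some of the 402 genes: 12 have a size of at least the fitted value and 28 have no stated size.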

Other observations

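Of 289 probe sets that pair with several gene names and pass the filter, 1 had a higher and 5 a lower temperature effect under nitrogen limitation. Of 270 genes with at least 2 probe sets, 28 had a called difference, and for 4 of these (AUS1, DCK1, RMD6 and ZRT1) the probe sets had fitted differences of opposite sign. Of 83 transfer RNA genes, 46 fell at 12 °C under nitrogen and 41 under carbon limitation, where 22.3% and 12.6% of all genes fell, while 15 and 5 rose. The probe sets of 81 of them may share probes with other sequences. Small nucleolar RNAs rose in 20 of 40 under nitrogen and 17 under carbon limitation, where 15.9% and 13.1% of all genes rose, while 3 and 4 fell.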
